A study of Homo sapiens with 6 samples.

Results

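The genes described here encode the machinery that folds proteins in the endoplasmic reticulum (ER), the machinery that removes misfolded ones (ER-associated degradation, ERAD), and the sensors that adjust both. The 33 genes were listed by symbol and found through their Entrez IDs among the 40448 genes in the deposited data. They were divided by role into a folding arm of 15 genes, a degradation arm of 13 and a group of 5 sensors and transcription factors. They were measured by RNA sequencing in KYSE150 cells, an established line from a human squamous carcinoma of the oesophagus. The control group, called mock, comprised clones 1, 4 and 5, which stably carried the pIRES2-EGFP vector. The second group comprised clones 1, 6 and 17, which were stably transfected with NCCRP1. Each of the 6 clones gave 1 library, and clone 1 of one group has no relation to clone 1 of the other. Every library is a single clone of 1 line. Differences between clones that have nothing to do with the vector therefore enter each group's spread and mean. A p-value reflects only spread among the 6 libraries. In the limma fit each gene's variance was also moderated toward that of other genes, so an SE is not the gene's own spread alone. NCCRP1 has an F-box-associated (FBA) domain, the kind of domain through which FBXO2 and FBXO6 recognise N-glycans on misfolded glycoproteins. For that reason the folding arm was set against the degradation arm.

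Secretory and membrane proteins fold in the ER with the help of chaperones such as HSPA5 (BiP), lectins that hold glycoproteins (CALR and CANX) and disulphide isomerases. Glycoproteins that fail to fold have mannose trimmed from their N-glycans, are recognised by lectins, pass through a membrane channel around the ubiquitin ligase SYVN1, and are pulled out by VCP for destruction by the proteasome. When unfolded proteins accumulate, the sensors ERN1 (IRE1), EIF2AK3 (PERK) and ATF6 start the unfolded protein response, in which ERN1 splices XBP1 mRNA, EIF2AK3 raises translation of ATF4, and cleaved ATF6 enters the nucleus. Much of this activity is post-transcriptional and is not read by the level of the sensor's own mRNA.

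Known promoter elements of the unfolded protein response are the ER stress response element (ERSE), searched here as CCAAT and CCACG with any 9 bases between them, and ERSE-II, searched as ATTGG and CCACG with any 1 base between them. A core of the unfolded protein response element, TGACGTGG, was searched as well. All were searched on both strands in 300-base windows of the RefSeq annotation of GRCh38.p14, from 250 bases before to 50 after each annotated start. Of the 33 genes, 30 had such a window; PDIA3, DERL1 and UFD1 were not matched. ERSE was found for 7 of them (CALR, CANX, CRELD2, HSP90B1, HSPA5, PDIA6 and XBP1), for 0.0916% of all 27305 genes with a window and in 0.0769% of all 35116 promoter windows. ERSE-II was found for 3 (HERPUD1, HYOU1 and SDF2L1), for 0.0696% of all those genes and in 0.0541% of all windows. The TGACGTGG core was found for HYOU1 and VCP, for 0.927% of all those genes and in 0.729% of all windows. In HYOU1 it overlaps an ERSE-II match. Of the 10 genes with ERSE or ERSE-II, 8 belonged to the folding arm, 1 to the degradation arm and 1 to the sensors. The elements were originally defined from promoters of this kind of gene, so their presence is no independent finding. The stretches around the elements are shown for the genes whose values are given in full below, SDF2L1 excepted. Each element is in capitals with 12 flanking bases on each side, 5′ to 3′ on the gene's strand. HSP90B1 has a pair of elements, of which the second lies on the other strand, as does that of CALR, where the capitals read as the reverse complement.
HSPA5, chr9:125241379-125241421, minus strand: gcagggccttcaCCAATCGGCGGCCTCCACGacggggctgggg
HSP90B1, chr12:103930204-103930351, plus strand: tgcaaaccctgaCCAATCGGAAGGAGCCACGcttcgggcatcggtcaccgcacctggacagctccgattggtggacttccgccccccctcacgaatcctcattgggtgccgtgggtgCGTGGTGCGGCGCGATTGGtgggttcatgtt
CALR, chr19:12938372-12938414, plus strand: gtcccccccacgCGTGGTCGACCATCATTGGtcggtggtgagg
CANX, chr5:179698766-179698808, plus strand: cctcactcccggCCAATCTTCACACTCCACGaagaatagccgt
XBP1, chr22:28800591-28800633, minus strand: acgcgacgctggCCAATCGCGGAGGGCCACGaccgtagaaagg
HERPUD1, chr16:56932013-56932047, plus strand: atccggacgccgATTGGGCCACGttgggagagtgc

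The deposited values were read as log2 RPKM (reads scaled by gene length and by sequencing depth), so a difference of 1 is a doubling. On that reading a 0 stands for a gene under 1 RPKM or without an estimate. TPT1 and UBB, which every cell uses, were listed at 0 in all 6 libraries. Between 12477 and 12821 genes per library lay above 0, and the depth, estimated from the steps of low microRNA values, ranged from 12290000 to 18070000 reads. These depths are rough, since at them only 24.6% (mock clone 5) to 34.3% (mock clone 1) of those values fell on whole reads. Sequencing run 15 held mock clones 1 and 4 with NCCRP1 clone 1, and run 14 held the other 3 clones. Mock clones all had NCCRP1 listed at 0, and it reached log2 RPKM 6.19, 8.07 and 6.71 in the clones given it, 1, 6 and 17 in that order (limma adjusted p = 0.00449). With mock clone 1, 4 or 5 left out, NCCRP1 missed the threshold (limma adjusted p = 0.0626, 0.0507 and 0.0549), while all NCCRP1 clones still lay above all mock clones. All 14 squamous epithelial markers were tested (KRT5 at 9.54 to 10.86). The NCCRP1 mean was lower for 10 of them and higher for 4 (28.6%, beside 46.7% of all genes tested). Their median log2 difference was -0.19, with a range of -1.57 to 0.69. None passed the test, 3 of 14 had an unadjusted p under 0.05, and their part in the ER gene differences was not tested. Of 6 fibroblast markers 5 were at 0 in every library, as were 3 of 5 leukocyte markers and 3 of 4 endothelial ones, while CD68 and CD74 were above 0 in all. In the test of 12737 genes listed above 0 in at least 3 libraries, 9 were higher and 4 lower in NCCRP1 clones at an adjusted p under 0.05.

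No ER gene passed the test between NCCRP1 and mock clones. In such bulk libraries fewer cells with a transcript and less of it per cell cannot be told apart. Of the 33 genes 32 were tested, each of them above 0 in all 6 libraries, and 0 were called, beside 0.102% of all genes tested, 0.0707% higher and 0.0314% lower in NCCRP1 clones (limma with Benjamini-Hochberg adjustment over 12737 genes). Their adjusted p values ran from 0.592 to 0.997. An unadjusted limma p under 0.05 was reached by 3 of 32 (9.38%), HERPUD1, DNAJC3 and HSP90B1, beside 7.33% of all genes tested. The 3 libraries of one group all lay above the 3 of the other for 4 of 32 genes (12.5%), beside 12.8% of all genes tested. NCCRP1 clones were the higher ones for 3 of these and the lower for 1, beside 5.71% and 7.05% of all genes, so these shares were near the background. The mean was higher in NCCRP1 clones for 20 genes (62.5%, beside 46.7% of all genes tested) and lower for 12. The median log2 difference was 0.08 beside -0.02 over all genes tested. For 26 of the 32 genes the difference was under 0.25 on the log2 scale in either direction, and the 95% intervals reached from -0.86 (HERPUD1) to 0.84 (DNAJB9). Within the sequencing runs 11 genes were higher in NCCRP1 clones in both, 7 were lower in both and 14 had opposite signs. Every difference within run 15 rests on NCCRP1 clone 1 alone, and every one within run 14 on mock clone 5 alone. No such count over all genes is given here.

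**Figure D1:**
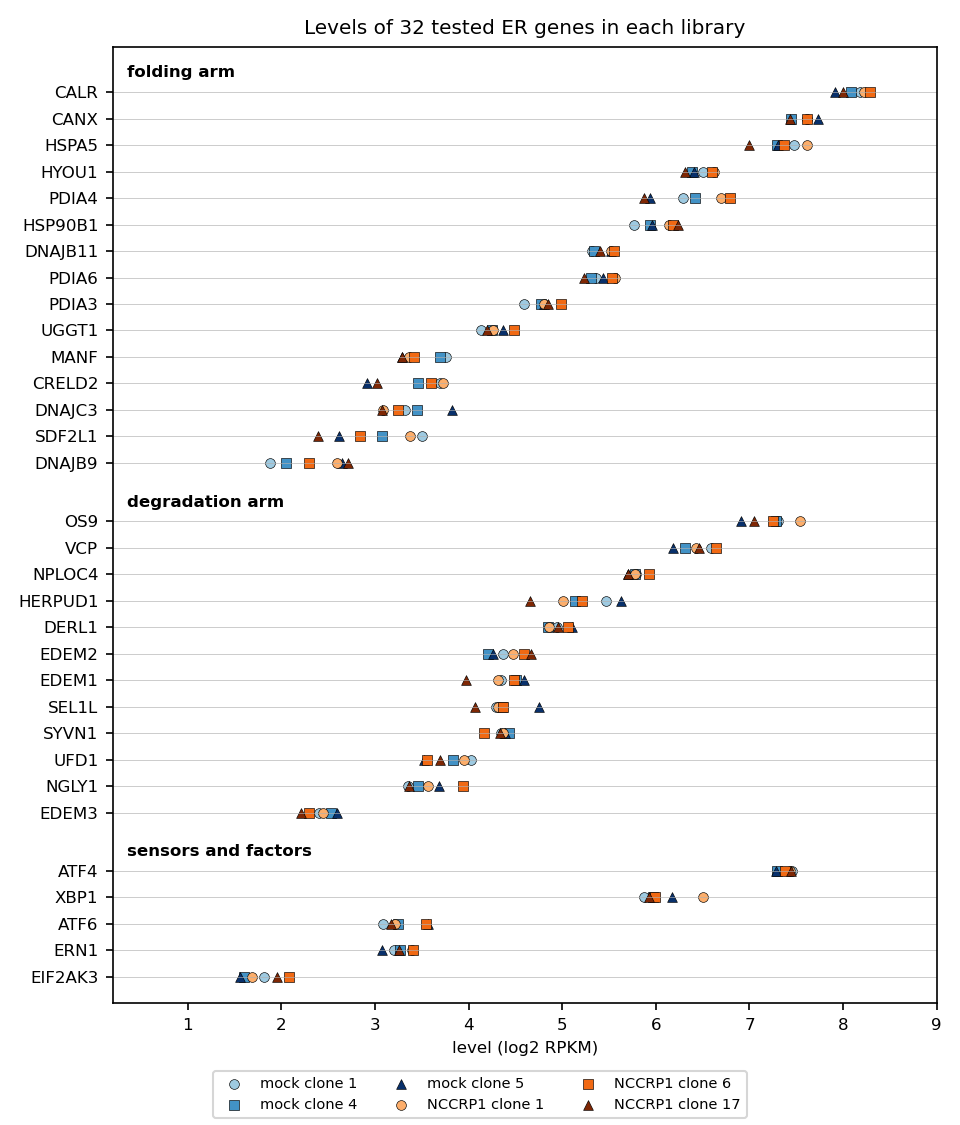
Level of each of the 32 tested ER genes in each library (x axis, log2 RPKM), with genes ordered by mean level within their role, blue for mock and orange for NCCRP1 clones. Blue and orange points lie apart for HSP90B1, PDIA3, EDEM2 and DNAJC3 and overlap for the other genes.

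CALR, the calcium-binding lectin chaperone calreticulin, was the most abundant per length. CALR stood at log2 RPKM 8.18, 8.09 and 7.91 in mock clones 1, 4 and 5 and at 8.22, 8.29 and 8.0 in NCCRP1 clones 1, 6 and 17. Its membrane-bound relative calnexin, CANX, stood at 7.62, 7.45 and 7.73 in mock and at 7.61, 7.62 and 7.43 in NCCRP1 clones. ATF4, a transcription factor that is itself regulated mainly through its translation, stood at 7.45, 7.30 and 7.28 in mock and 7.44, 7.38 and 7.44 in NCCRP1 clones. The groups overlapped for all 3 of these genes, and their means lay closer together than the range within either group for CALR and CANX. HSPA5, the central chaperone of the ER lumen, came next and is given although the rule for named genes did not select it. HSPA5 stood at 7.47, 7.29 and 7.30 in mock and 7.62, 7.37 and 7.0 in NCCRP1 clones, a log2 difference of -0.03 ± 0.18 (SE; limma adjusted p = 0.994). NCCRP1 clones 1 and 17 were its highest and lowest libraries. At the other end EIF2AK3 and DNAJB9 had the lowest mean levels, and DERL2, which encodes a derlin of the degradation channel, was listed at 0 in all 6 libraries and was not tested. The DERL2 gene overlaps MIS12 in the annotation, and MIS12 was measured at log2 RPKM 3.95 to 4.41.

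In the folding arm, the NCCRP1 mean was higher for 10 of 15 genes (66.7%, beside 46.7% of all genes tested) and lower for 5. None passed the test. The median log2 difference was 0.08, and the genes ranged from -0.40 (DNAJC3) to 0.34 (DNAJB9). HSP90B1 encodes GRP94, the ER member of the HSP90 chaperones. It stood at log2 RPKM 5.77, 5.94 and 5.96 in mock clones 1, 4 and 5 and at 6.14, 6.18 and 6.23 in NCCRP1 clones 1, 6 and 17. All NCCRP1 clones lay above all mock clones. The log2 difference was 0.30 ± 0.13 (SE), a 1.23-fold ratio, with a limma adjusted p of 0.674. It was 0.29 within run 15 and 0.25 within run 14.

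PDIA3 (ERp57), the disulphide isomerase that works with calnexin and calreticulin, was the other folding gene whose NCCRP1 clones all lay higher. Mock clones stood at log2 RPKM 4.59, 4.77 and 4.80, and NCCRP1 clones at 4.81, 4.99 and 4.85. The gap between the highest mock and the lowest NCCRP1 clone was smaller than the spread within either group, and the log2 difference was 0.16 ± 0.14 (SE; limma adjusted p = 0.902). PDIA3 overlaps ELL3 in the annotation, and the sources used here do not say whether reads were counted by strand. DNAJB9 (ERdj4), a co-chaperone of HSPA5, had the largest positive difference of the arm. It stood at 1.88, 2.05 and 2.64 in mock clones 1, 4 and 5 and at 2.59, 2.29 and 2.71 in NCCRP1 clones 1, 6 and 17. Mock clone 5 lay among the NCCRP1 clones, the log2 difference was 0.34 ± 0.23 (SE; limma adjusted p = 0.846), and it took opposite signs in the runs, 0.63 in run 15 and -0.14 in run 14.

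DNAJC3 (p58IPK), a co-chaperone of HSPA5, was lower in all NCCRP1 clones than in all mock clones. It stood at log2 RPKM 3.32, 3.45 and 3.82 in mock clones 1, 4 and 5 and at 3.09, 3.24 and 3.08 in NCCRP1 clones 1, 6 and 17. The log2 difference was -0.40 ± 0.17 (SE; limma adjusted p = 0.652), a ratio of 0.760. The 30 expressed protein-coding genes nearest to DNAJC3 on chromosome 13 differed by a median of -0.36 in the same direction. Their median deviation was 0.04, 0.18 and 0.37 in the mock and -0.23, -0.14 and -0.12 in the NCCRP1 clones. Less that shift, the difference of DNAJC3 was -0.03 (limma adjusted p = 0.978). Such a subtraction made the differences of some ER genes smaller and of others larger. CALR went from 0.11 to 0.31, DNAJB9 from 0.34 to 0.43 and PDIA4 from 0.24 to 0.35 (limma adjusted p = 0.650, 0.540 and 0.627 after it). DNAJB9 then had the lowest adjusted p of the ER genes. MANF, a secreted ER stress factor, stood at 3.76, 3.69 and 3.28 in mock and at 3.36, 3.41 and 3.28 in NCCRP1 clones. Mock clone 5 lay at the level of the NCCRP1 clones (log2 difference -0.23 ± 0.17 SE, limma adjusted p = 0.875).

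The other folding genes were HSPA5, HYOU1, DNAJB11, SDF2L1, CALR, CANX, UGGT1, PDIA4, PDIA6 and CRELD2, with log2 differences between -0.20 (SDF2L1) and 0.24 (PDIA4) and overlapping groups. HYOU1, the nucleotide exchange factor of HSPA5, and UGGT1, the glucosyltransferase that returns unfolded glycoproteins to the calnexin cycle, differed by 0.08 and 0.06. The isomerases PDIA4 and PDIA6 differed by 0.24 and 0.08, and the co-chaperone DNAJB11 by 0.10. PDIA4 was chosen after its values were seen, for its wide spread. NCCRP1 clones 1 and 6 stood at 6.69 and 6.79, above all mock clones (6.29, 6.42 and 5.93), and NCCRP1 clone 17 at 5.87, below all of them. That clone was the lowest of the 6 libraries for 8 of the 15 folding genes. The neighbours of PDIA4 were also lowest in it, at a median deviation of -0.36, against -0.01 to 0.13 in the other libraries. Those of HSPA5, another gene lowest in that clone, stood at 0.10 in it. The neighbours' part in that count was not tested.

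In the degradation arm, the NCCRP1 mean was higher for 5 of 12 tested genes (41.7%, beside 46.7% of all genes tested) and lower for 7. The median log2 difference was -0.04. HERPUD1, a membrane protein that organises the SYVN1 channel, had the lowest adjusted p of all the ER genes. It stood at log2 RPKM 5.47, 5.14 and 5.63 in mock clones 1, 4 and 5 and at 5.01, 5.21 and 4.65 in NCCRP1 clones 1, 6 and 17. NCCRP1 clone 6 lay above mock clone 4, so the groups overlapped. The log2 difference was -0.46 ± 0.18 (SE; limma adjusted p = 0.592), a ratio of 0.729, and it was -0.30 within run 15 and -0.70 within run 14. The nearest genes on chromosome 16 differed by a median of -0.33. Their median deviation was 0.17, 0.13 and 0.20 in the mock and -0.04, -0.02 and -0.43 in the NCCRP1 clones, so that NCCRP1 clone 17, the lowest library for HERPUD1, was also the lowest for its neighbours. Less that shift, HERPUD1 differed by -0.12 (limma adjusted p = 0.898).

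The 3 EDEM genes encode proteins that trim mannose from glycoproteins or pass them on for degradation, and they did not share a direction. EDEM2, which makes the first mannose cut, stood at log2 RPKM 4.36, 4.21 and 4.26 in mock and at 4.47, 4.59 and 4.66 in NCCRP1 clones. All NCCRP1 clones lay above all mock clones, with a log2 difference of 0.30 ± 0.14 (SE; limma adjusted p = 0.681), while its neighbours differed by a median of 0.06. EDEM1 stood at 4.34, 4.51 and 4.59 in mock and 4.32, 4.49 and 3.98 in NCCRP1 clones, a log2 difference of -0.22 ± 0.16 (SE; limma adjusted p = 0.875). NCCRP1 clone 17 was its lowest library, and the other clones overlapped. EDEM3 differed by -0.19 with overlapping groups, and NCCRP1 clone 17 was again lowest.

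**Figure D2:**
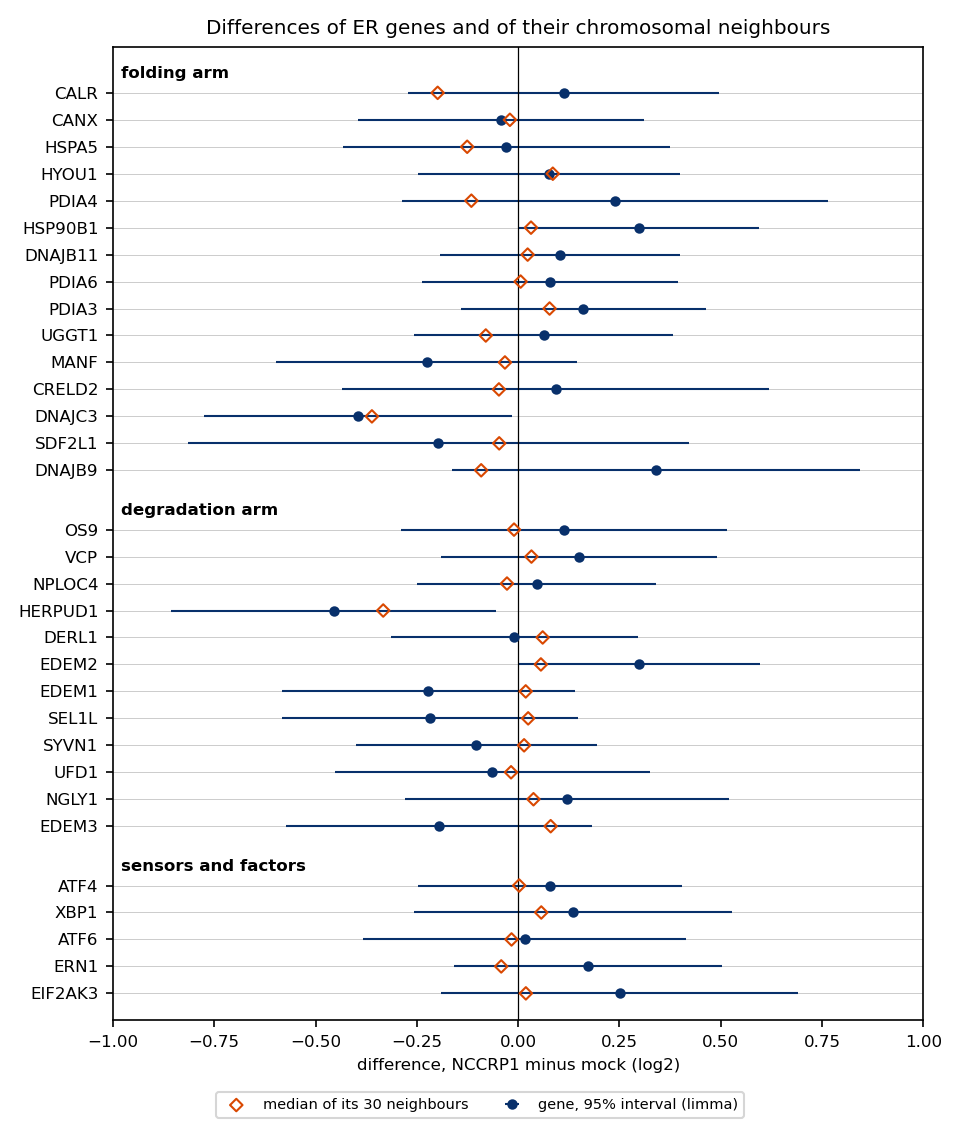
Log2 difference between NCCRP1 and mock clones (x axis) for each tested ER gene, with its 95% interval from limma as a line and the median difference of its 30 nearest expressed neighbours as an open diamond. The diamonds of DNAJC3 and HERPUD1 lie at -0.36 and -0.33, near the genes' own values of -0.40 and -0.46, and those of HSP90B1 and EDEM2 at 0.03 and 0.06, near 0.

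SEL1L, the adaptor that brings substrates to SYVN1, stood at log2 RPKM 4.29, 4.36 and 4.76 in mock and 4.31, 4.37 and 4.07 in NCCRP1 clones. Mock clone 5 was the highest and NCCRP1 clone 17 the lowest library, and the other 4 lay together (log2 difference -0.22 ± 0.17 SE, limma adjusted p = 0.875). The ligase SYVN1 itself differed by -0.10. SYVN1, at log2 RPKM 4.16 to 4.43, overlaps MRPL49 in the annotation, which was measured higher, at 4.669 to 4.895. The lectin OS9 differed by 0.11, the derlin DERL1 by -0.01 and the glycan-removing enzyme NGLY1 by 0.12. VCP and its cofactors UFD1 and NPLOC4, which extract proteins from the ER membrane and also work elsewhere in the cell, differed by 0.15, -0.06 and 0.05. The groups overlapped for all 7 of these genes.

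The NCCRP1 mean was higher for all 5 sensors and transcription factors, beside 46.7% of all genes tested. Their differences lay between 0.02 (ATF6) and 0.25 (EIF2AK3), with a median of 0.13 and groups that overlapped for each gene. EIF2AK3 stood at log2 RPKM 1.81, 1.60 and 1.56 in mock clones and at 1.69, 2.08 and 1.95 in NCCRP1 clones (log2 difference 0.25 ± 0.20 SE, limma adjusted p = 0.882). It overlaps an antisense gene, EIF2AK3-AS1, that was itself listed at 0.33 to 0.85. ERN1 stood at 3.20, 3.26 and 3.08 in mock clones and at 3.39, 3.41 and 3.26 in NCCRP1 clones (log2 difference 0.17 ± 0.15 SE, limma adjusted p = 0.909). Its highest mock and lowest NCCRP1 clones touched. XBP1 stood at 5.87, 5.97 and 6.17 in mock clones 1, 4 and 5 and at 6.50, 5.99 and 5.92 in NCCRP1 clones 1, 6 and 17. NCCRP1 clone 1 alone lay above the mock clones, and the difference was 0.58 within run 15 and -0.21 within run 14. These values do not separate spliced from unspliced XBP1. For ATF4, whose 6 values are given above, the log2 difference was 0.08 ± 0.15 (SE; limma adjusted p = 0.971).

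Arm means put the same values side by side by library. The mean of the folding arm was log2 RPKM 5.16, 5.13 and 5.11 in mock clones 1, 4 and 5, against 5.28, 5.25 and 5.00 in NCCRP1 clones 1, 6 and 17. NCCRP1 clones thus held both the highest means and the lowest. The mean of the degradation arm was 4.77, 4.73 and 4.78 in mock and 4.75, 4.79 and 4.59 in NCCRP1 clones, where again NCCRP1 clone 17 was lowest. Folding minus degradation was 0.390, 0.406 and 0.331 in mock clones, against 0.525, 0.465 and 0.406 in NCCRP1 clones on the log2 scale. The group means of that quantity were 0.376 ± 0.039 and 0.466 ± 0.059 (SD, n = 3 each), and mock clone 4 and NCCRP1 clone 17 stood at the same rounded value. The difference of 0.09 was 0.127 within run 15 and 0.104 within run 14. It was 0.039 when DNAJB9, which has also been linked to degradation, was counted in the degradation arm. With VCP, UFD1 and NPLOC4 left out it was 0.119, and with medians in place of means 0.115. Less the shifts of the genes' neighbours it was 0.144. For the sensors the mean was 4.28, 4.27 and 4.33 in mock and 4.45, 4.48 and 4.35 in NCCRP1 clones, with NCCRP1 clone 17 just above mock clone 5. No test was made of these means over chosen genes.

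**Figure D3:**
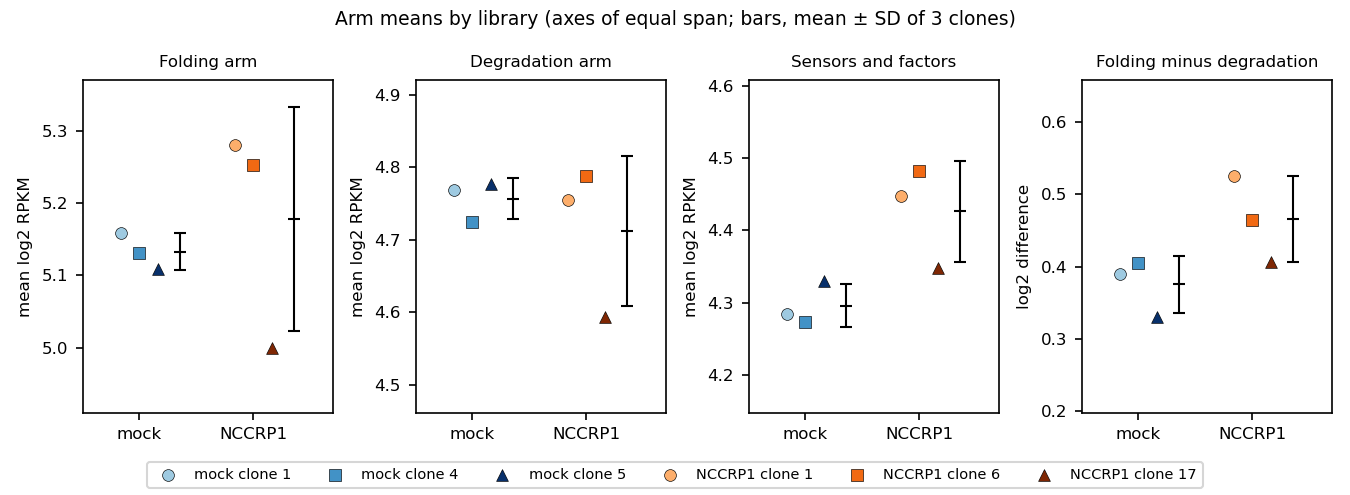
Mean log2 RPKM of the folding arm, the degradation arm and the sensors in each library, and the folding mean minus the degradation mean, with group mean ± SD of 3 clones as bars and axes of equal span. NCCRP1 clone 17 has the lowest folding mean (5.00) and degradation mean (4.59) of the 6 libraries.

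NCCRP1 clone 17 lay at the lower end for many ER genes, in counts that are given without a test. It was the lowest library for 12 of 32 ER genes (37.5%), beside 14.3% of all genes tested. NCCRP1 clone 6 was the highest library for 10 of 32 (31.2%), beside 13.6%. NCCRP1 clone 1 was the lowest library for 0 of 32, beside 19.4%. Without NCCRP1 clone 17 the median log2 difference of the folding arm was 0.176, beside 0.078 with it, that of the sensors 0.220, and that of the degradation arm -0.03. No ER gene was called without it.

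Among the mock clones, clone 5, the only one read in run 14, differed from clones 1 and 4, both read in run 15, along with the base composition of the transcripts. The clone and the run cannot be told apart in this contrast. SDF2L1, a partner of the DNAJB co-chaperones and the gene with the most GC-rich transcript (65.5%), stood at log2 RPKM 3.50 and 3.08 in mock clones 1 and 4 and at 2.62 in clone 5. NCCRP1 clone 1, also of run 15, stood at 3.38 for this gene, and NCCRP1 clones 6 and 17, of run 14, at 2.84 and 2.39, so all run 15 libraries lay above all run 14 libraries. DNAJB9, with a GC content of 40.4%, stood 0.68 higher in mock clone 5 than the mean of the other mock clones. CRELD2, with 54.5% GC, stood 0.67 lower (-0.67). Of the 16 genes below the median GC content of the tested ER genes (45.9%), 15 were higher in mock clone 5 than the mean of mock clones 1 and 4, and of the 16 at or above it 15 were lower. In the NCCRP1 group the mean of clones 6 and 17 was higher than clone 1 for 8 of the 16 genes of lower GC content and lower for 13 of the 16 others. These genes were picked after their values were seen, and the transcripts' part in the differences between groups was examined only by removing each library's GC trend. With the trend removed, the folding, degradation and sensor medians were 0.086, -0.034 and 0.148, and 0 ER genes were called.

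**Figure D4:**
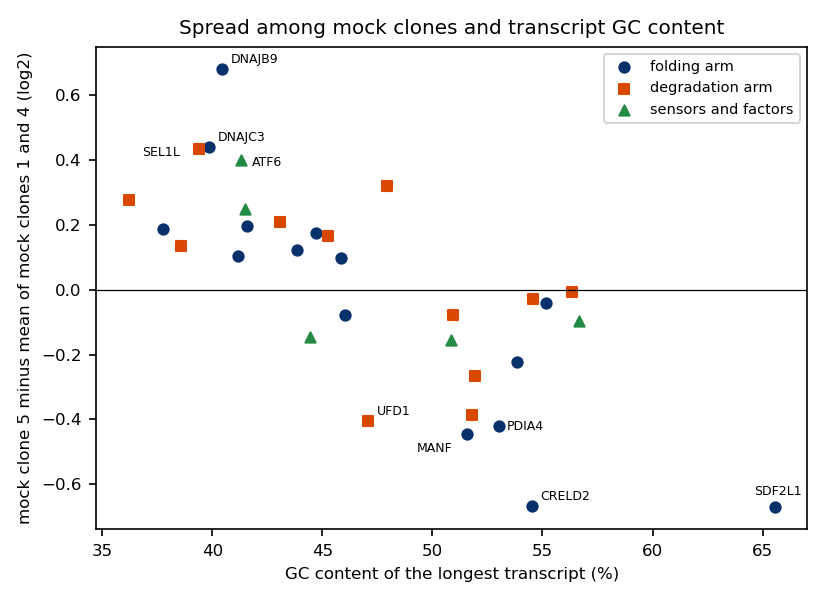
Mock clone 5 minus the mean of mock clones 1 and 4 for each tested ER gene (y axis, log2) against the GC content of its longest annotated transcript (x axis, percent). Genes below 45.9% GC lie above 0 with 1 exception, and genes above it lie below 0 with 1 exception.

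Set by promoter, the 10 genes with ERSE or ERSE-II had a mean log2 RPKM of 5.94, 5.81 and 5.81 in mock clones 1, 4 and 5 and of 6.04, 5.92 and 5.62 in NCCRP1 clones 1, 6 and 17. NCCRP1 clone 1 was highest and NCCRP1 clone 17 lowest. Their median log2 difference was 0.08, and that of the 19 measured genes with a promoter window and no match was also 0.08. The genes whose elements are printed above spread over this range, from HERPUD1 at -0.46 to HSP90B1 at 0.30.

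Neighbouring steps of the same pathway were taken from 6 further lists of 136 genes, of which 129 were tested and none passed other than NCCRP1 itself. Of 22 other disulphide and prolyl isomerase genes, the NCCRP1 mean was higher for 17 (77.3%, beside 46.7% of all genes tested). Their median log2 difference was 0.09. For 6 of the 22 all NCCRP1 clones lay above all mock clones, beside 5.71% of all genes tested. FKBP14, a prolyl isomerase of the ER, stood at log2 RPKM 0.90, 0.76 and 1.05 in mock and at 1.64, 1.42 and 1.79 in NCCRP1 clones (log2 difference 0.72 ± 0.21 SE, limma adjusted p = 0.366). These levels lie near the floor of 0. With log2(RPKM + 1) the difference of FKBP14 was 0.50, and it reached 0.77 with quantile normalization. The sulphydryl oxidase QSOX1 and the isomerase PDIA5 differed by 0.48 and 0.51, with limma adjusted p values of 0.520 and 0.522. Of the 32 genes of the 26S proteasome, which destroys what ERAD extracts, the NCCRP1 mean was higher for 27 (84.4%, beside 46.7%). The median log2 difference was 0.18. For 12 of the proteasome genes all NCCRP1 clones lay above all mock clones (37.5%, beside 5.71% of all genes tested). They were led by PSMA1 at 0.42 (limma adjusted p = 0.462). PSMA6 and PSMA4 each differed by 0.37.

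Among 21 genes of N-glycan transfer and trimming, the NCCRP1 mean was higher for 16 (76.2%, beside 46.7% of all genes tested). The median log2 difference was 0.08, and the groups overlapped for every gene. UGGT2, the second glucosyltransferase of the calnexin cycle, differed by -0.46 (limma adjusted p = 0.696), and its neighbours by -0.36. Less that shift UGGT2 differed by -0.10. Its neighbours' median deviations were 0.04, 0.17 and 0.37 in mock and -0.23, -0.14 and -0.14 in NCCRP1 clones. These are nearly the values around DNAJC3, so the lower levels of UGGT2 and DNAJC3 do not count as separate observations. PRKCSH differed by -0.27 and, less its neighbours, by -0.05. KRTCAP2 differed by 0.21, by 0.04 without mock clone 4 and by 0.31 without mock clone 1. The 32 other ERAD genes split into 17 higher and 15 lower, with a median of 0.00 to 2 decimals. Here YOD1, a deubiquitinase that works with VCP, differed by 0.44 (limma adjusted p = 0.790). Its difference was 0.16 without NCCRP1 clone 17 and 0.63 without NCCRP1 clone 1. Of 13 genes of the PERK and ATF4 branch 6 were higher and 7 lower, with a median of -0.01. TRIB3 differed by -0.43 (limma adjusted p = 0.756), and CEBPG and SESN2 by -0.18 each. Without NCCRP1 clone 17 these differences were -0.19, -0.11 and -0.04, and without NCCRP1 clone 1 they were -0.67, -0.18 and -0.29. Of the 9 FBA-domain and SCF core genes, NCCRP1 included, 6 were higher and 3 lower, with FBXO27 at -0.26 and FBXO44 at 0.18.

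**Figure D5:**
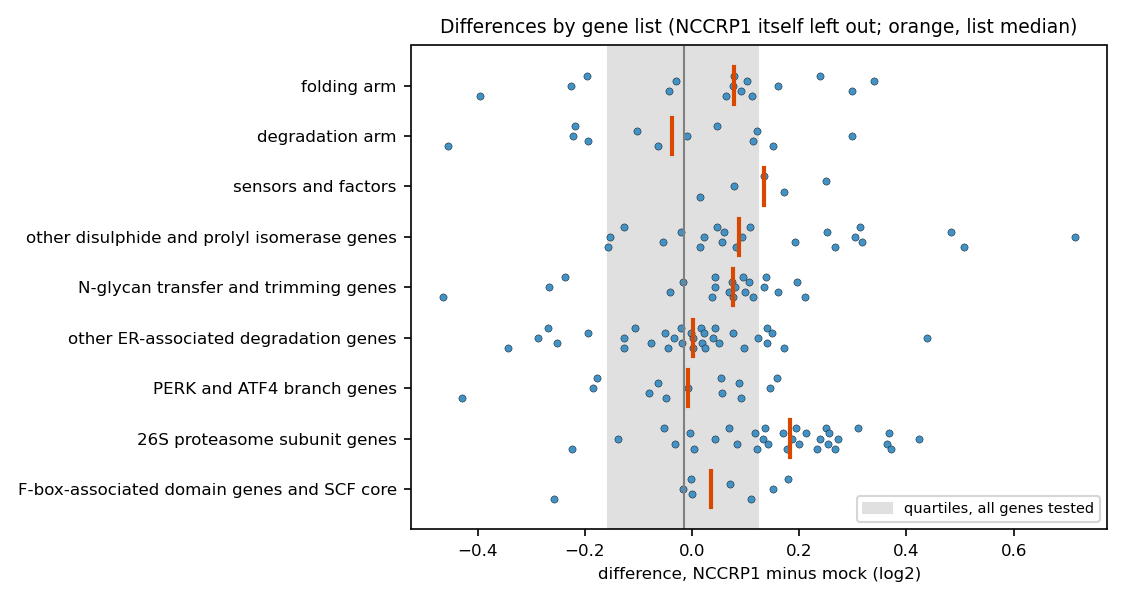
Log2 difference between NCCRP1 and mock clones (x axis) for each tested gene of the 3 ER groups and the 6 further lists, NCCRP1 left out, with list medians in orange, the median over all genes as a grey line and their quartiles as a grey band. The proteasome genes have the highest median of the lists, 0.18, and 27 of 32 lie above 0, beside 46.7% of all genes tested.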

How the data were processed

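Per the labels' protocols, the libraries were Ion Torrent ones from DNase-treated total RNA without its ribosomal RNA. The submitters' processing notes name the hg19 build and bedtools 2.25.0 without their roles, and the aligner is not given in the sources used here. The authors deposited 1 value per Entrez gene and library, called RPKM per the file headers. The deposited values were read as log2 RPKM. Undone as log2 and multiplied by gene length they summed to between 1.139e+06 and 1.147e+06 per library. Undone as natural logs they summed to between 1.148e+07 and 1.452e+07. No value lay below 0, and a reading as log2(RPKM + 1) was not tested. They were therefore compared as deposited, with no pseudocount. Symbols (37997 of 40448 IDs), gene order and promoters came from RefSeq on GRCh38.p14.

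NCCRP1 and mock clones were compared with limma 3.58.1 in R 4.3.3 (two-sided, with only the group in the model and with trended and robust empirical Bayes variances). The fit held 12737 genes above 0 in at least 3 of 6 libraries, with Benjamini-Hochberg adjustment over all of them and a threshold of 0.05. It was tested on simulated data. An exact permutation test of 3 against 3 clones cannot go below p = 0.1. Differences are on the log2 RPKM scale, and each SE is the moderated one of this fit. The neighbour shift was the median deviation of the 30 nearest protein-coding genes whose mean level reached a log2 RPKM of 2. GC content was that of the longest GENCODE release 29 transcript.

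The ER genes and the other lists were chosen with earlier results of these data known. Values are given for NCCRP1, for the 4 genes of lowest p in each of the 3 ER groups, for genes whose groups did not overlap, for the 3 of highest mean level, for untested ER genes, and for up to 3 genes of lowest p in each further list. Some genes that this rule selected are not reported here. Other genes named were chosen after their values were seen. Alternatives changed the scale, the filter, the normalization, the empirical Bayes options, the sequencing run, the neighbours, the libraries left out and the make-up of the arms. Removal of a GC trend (loess, span 0.5) was added after seeing the data. Protein sequences were not analysed here.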

Additional observations from a re-analysis of the deposited data

How the results depend on the processing

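The count of called ER genes was 0 in each of the 17 settings. The count over all genes, 13, was 4 with log2(RPKM + 1), 1 with log2(RPKM + 0.1), 3 without a filter on low values, 7 with genes above 0 in all libraries, 5 without robust estimation, 3 without a trend, 2 with the sequencing run as a term and 4 with the GC trend removed. Leaving out 1 library gave 0 (without mock clone 5) to 29 (without NCCRP1 clone 1). The causes were not tested.

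Leaving out 1 library put the median log2 difference of the folding arm between 0.022 and 0.176, of the degradation arm between -0.080 and 0.014, and of the sensors between 0.071 and 0.220. It put the difference between NCCRP1 and mock clones in folding minus degradation between 0.060 and 0.119. CANX ranged from -0.117 to 0.0231 and XBP1 from -0.0472 to 0.242, so their signs turned. Leaving out 1 library moved the difference by over 1.5 times for 12 of the 15 tested ER genes that the naming rule selected, the exceptions being HSP90B1, EDEM2 and ERN1, and for 7 of 16 named genes of the further lists, NCCRP1 included. No paired analysis was possible because the groups share only clone number 1, which names unrelated clones. The groups held 3 clones each, and the median moderated SE was 0.17. Differences of the size seen could not be told from the spread between clones as the fit estimated it.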
